A study of Drosophila melanogaster with 47 samples.

Results

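Of the 6511 regions at which any of 14 transcriptional regulators was called in Drosophila melanogaster, 779 held a peak of Cmi and of no other list. Peaks of all 16 deposited lists on the 6 main chromosome arms (X, 2L, 2R, 3L, 3R and 4) were merged wherever they shared at least 1 bp. The Cmi-alone regions were chosen by the positions of these peaks, as the merged regions in which Cmi was the sole list. They are 48.9% of the 1592 regions with a Cmi peak (95% Clopper-Pearson interval 46.4 to 51.4) and 18.6% of the 4197 regions held by 1 list. The remaining 813 Cmi regions held at least 1 other list and are called shared here. The number of these regions and their lack of other peaks therefore describe the choice, and no test was made of either. Intervals on shares cover counting error only, and the lists carry no value per replicate.

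Cmi (Cara Mitad, also named Lpt) is a subunit of the complex built around the histone methyltransferase Trr, the fly counterpart of the mammalian complexes that place the monomethyl mark on histone H3 at enhancers. Cmi carries PHD fingers and an HMG domain but lacks the catalytic SET domain, which Trr provides. The complex is known as a coactivator of the ecdysone receptor.

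The series mapped binding by chromatin immunoprecipitation and sequencing (ChIP-seq) in 47 samples, 35 immunoprecipitated and 12 input. The Cmi list came from 2 immunoprecipitated samples of embryos of 0 to 8 h from the Exd-GFP line, precipitated with an antibody to Cmi named KW1-cmi, a gift of the Dingwall laboratory, and 1 input of the same line. The Exd-GFP name is the source given for both the immunoprecipitated and input samples, so all 3 Cmi samples share it. The labels do not say whether the Cmi samples came from separate collections of embryos.

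The 15 other lists, which decide by their absence what is alone, came mostly from other material. Embryos gave 5 of them: br at 0 to 8 h, the same stage label as Cmi; Stat92E, prd with antibody RF12 and prd with antibody RF13 at 0 to 12 h; and Hr78 at 8 to 16 h. Larvae with the stage label W3L gave Notch, Lola, AbdB and a second Hr78 list. The Kc167 cell line gave Su(H), dm, insv and h, the S2 cell line gave CG8478, and adult females gave cnc. Both cell lines are of embryonic origin. The lists of Stat92E, Notch, Lola, AbdB and Hr78 were made with an anti-GFP antibody in lines named for the tagged regulator. A region called alone here was thus alone among these lists, and the material, antibody and depth of the other lists cannot be told apart from it.

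Cmi-alone peaks were weaker and narrower than shared Cmi peaks, with broad overlap between the classes. The score of a peak is the authors' −log10 p and its fold is their linear fold enrichment. Peaks are compared by either value only within the Cmi list. Across lists, score serves only to give lowest scores and to set cuts in alternative counts. The 779 alone peaks had scores from 6.47 to 23.1, with a median of 7.81 and quartiles of 7.03 and 9.38. The 901 Cmi peaks in shared regions ranged from 6.47 to 32.9, with a median of 8.78 and quartiles of 7.22 and 11.0. A score of 10 or more was reached by 143 alone peaks (18.4%) and by 314 shared ones (34.9%).

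Fold enrichment, which is on another scale than score, was also lower at the median in alone peaks. It ranged from 2.57 to 5.66 in alone peaks, with a median of 3.21, and from 2.77 to 7.14 in shared peaks, with a median of 3.41. Alone peaks were 66 to 2574 bp wide with a median of 329 bp, against 68 to 3473 bp and a median of 485 bp for shared peaks. A wider peak has more chance to touch another list, so width is not independent of how the regions were chosen. Within 3 equal classes of peak width the alone median was again the lower in score. It was 7.22 against 7.38 among the narrowest peaks, 7.81 against 8.17 in the middle class and 9.90 against 10.6 among the widest. Alone peaks were still the narrower inside each class, with median widths of 173 against 193 bp, 402 against 426 bp and 790 against 835 bp. The classes thus did not hold width equal.

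**Figure D1:**
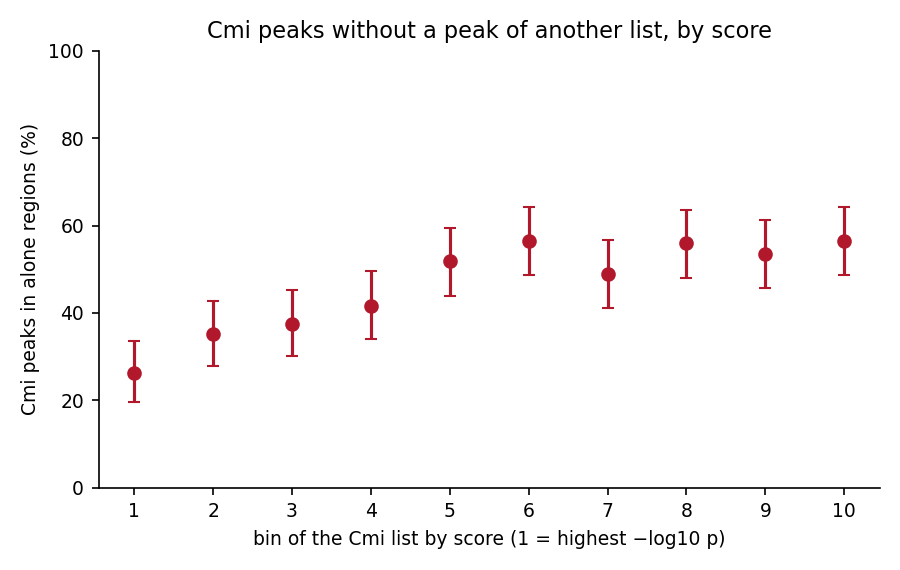
Share of Cmi peaks that lie in Cmi-alone regions (y axis, percent) in each of 10 bins of the Cmi list by score (x axis, 168 peaks a bin). Points are shares and bars are 95% Clopper-Pearson intervals; the share is 26.2% in the highest-scoring bin and lies between 48.8% and 56.5% from the fifth bin on.

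Along the ranked Cmi list, alone regions were scarcest at the top and then levelled off, as the plot of shares by score shows. In the highest-scoring of 10 equal bins 44 of 168 peaks were alone (26.2%, 19.7 to 33.5), and the median peak there was 855 bp wide. The share was 35.1% in the second bin, 37.5% in the third and 41.7% in the fourth. From the fifth bin down it stayed between 48.8% and 56.5%, while median width fell from 430 bp in the fifth bin to 234.5 bp in the ninth and was 239.5 bp in the last.

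The strongest Cmi-alone peaks still stood near the top of the Cmi list. The highest lay on 3R from 2798747 to 2799316, in coordinates of dm3, the build of all positions given. It had a score of 23.1 and a fold of 5.66 and was at place 14 of the deposited list. The second, on 3R at 26620379 to 26620890, had a score of 22.2 and was at place 16. The third, on 3L at 10848320 to 10849042, had a score of 20.8 and was at place 19. These 3 lay 2201, 4589 and 169 bp from the nearest peak of another list, h for the first and CG8478 for the other 2.

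The next peaks showed how differently a high-scoring alone region can be placed. The fourth, on 2R at 8845796 to 8846841 (score 20.0), directly adjoined a peak of prd with RF13, with 0 bp between them, and counts as alone because abutting peaks share no base. The fifth, on 3R at 19711705 to 19713456 (score 20.0), was 1752 bp wide and lay 14343 bp from any other list and 34678 bp from any other Cmi peak. The sixth, on X at 2282023 to 2282443 (score 19.9), had another alone Cmi peak 53 bp away. The seventh, on 2R at 15159096 to 15159949 (score 19.3), and the eighth, on 2R at 18569039 to 18570263 (score 19.2), also had alone neighbours, at 95 and 153 bp.

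The ninth, on 2L at 19425888 to 19426479, had a score of 17.6 and its nearest Cmi peak lay 145467 bp away, while a Su(H) peak lay at 1654 bp. The tenth, on 3L at 2881336 to 2882006 (score 17.6), had an alone neighbour at 259 bp. So 6 of the 10 had another Cmi peak under 1 kb away, and the fifth and ninth were far from any other. Genes and sequences at these positions are not given, because neither a dm3 genome nor a dm3 annotation was used here.

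The widest alone regions were not the highest in score. The widest, on 3R at 17465870 to 17468443, covered 2574 bp with a score of 12.9. It was followed by the 1752 bp region on 3R named above, by 1685 bp on 3L at 3408899 to 3410583 (score 12.4), 1636 bp on X at 17722653 to 17724288 (score 13.1) and 1626 bp on 2L at 1062230 to 1063855 (score 14.9). Across the 779 alone regions, width and score had a Spearman rho of 0.54, and fold and score one of 0.91. Among the 901 shared Cmi peaks the values were 0.52 and 0.96. All these points come from 1 list, so they share library, depth and caller, and the correlations are descriptions.

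**Figure D2:**
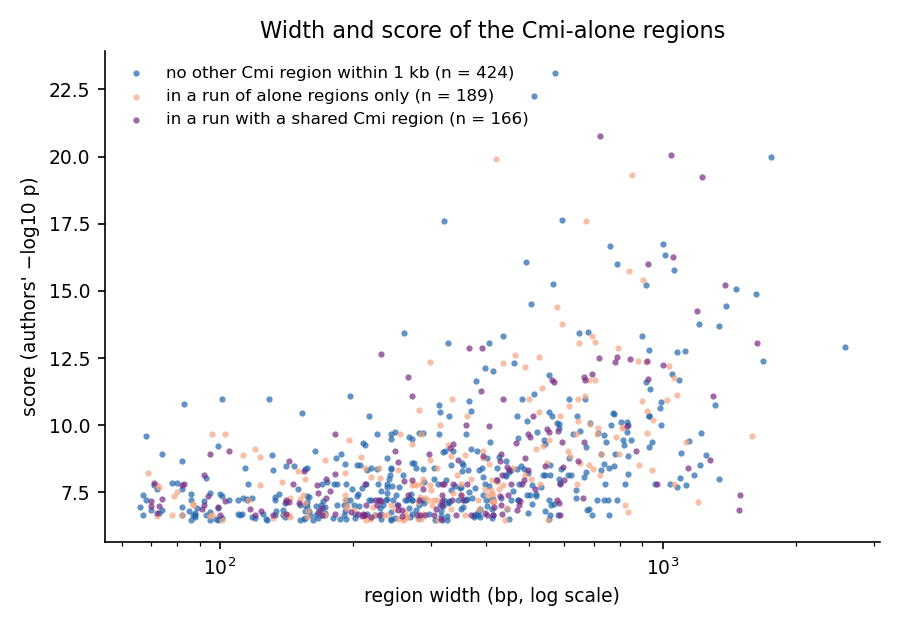
Each point is 1 of the 779 Cmi-alone regions, with its width in bp (x axis, log scale) against its score, the authors' −log10 p (y axis). Colours mark the 424 regions with no other Cmi region within 1 kb, the 189 in runs of alone regions only and the 166 in runs with a shared Cmi region; the 3 classes overlap over the whole range, with median scores of 7.79, 8.00 and 7.80.

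Many Cmi-alone regions lay beside another Cmi peak. Of the 779, 353 had another Cmi peak less than 1 kb away (45.3%, 41.8 to 48.9), and for 121 of these the nearest was a peak in a shared region. The median distance to another Cmi peak was 1398 bp. Shared Cmi regions had another Cmi peak under 1 kb away in 287 of 813 cases (35.3%, 32.0 to 38.7). The shares of alone and shared regions are not like for like. Each alone region held 1 Cmi peak, while 75 of the 813 shared regions held more than 1, joined by the merging. Cmi peaks joined inside a region are part of it and not its neighbours. How far the merging set the difference was not tested. In the lists of the other regulators with many sole regions, the share with a peak of the same list under 1 kb away was 56.5% for Su(H)-alone regions (53.2 to 59.8), 43.2% for CG8478 (38.6 to 47.9) and 21.9% for Notch (19.1 to 24.9). The Cmi value thus lay between those of Su(H) and Notch, and its interval overlapped that of CG8478.

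No 2 peaks of the Cmi list were closer than 51 bp, and 258 of the 1674 gaps between consecutive Cmi peaks were of 51 to 200 bp. Most lists had a similar smallest gap, from 45 bp for cnc to 60 bp for dm. Close Cmi peaks are thus separate lines of the list, and each was counted as alone or shared by itself.

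Taking Cmi regions less than 1 kb apart as 1 run, 424 alone regions stood singly (54.4%, 50.9 to 58.0), 189 were in runs of alone regions only (24.3%, 21.3 to 27.4) and 166 were in a run that also held a shared Cmi region (21.3%, 18.5 to 24.4). Their median widths were 322, 337 and 336.5 bp and their median scores 7.79, 8.00 and 7.80, so the 3 settings were much alike in strength. They differed in how near other regulators were, with a median of 5127 bp to the nearest other list for single regions, 4021 bp for runs of alone regions and 491 bp beside a shared region, where a peak of another list lies close by construction.

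The shared Cmi regions that stood in a run with an alone region are set here beside the other shared regions by the regulators they held. CG8478, an uncharacterised regulator mapped in S2 cells, was in 41 of these 157 shared regions (26.1%, 19.4 to 33.7) and in 277 of the other 656 (42.2%, 38.4 to 46.1). The larval list of the nuclear receptor Hr78 was in 25.5% (18.9 to 33.0) against 38.1% (34.4 to 41.9), and its embryonic list in 11.5% (6.94 to 17.5) against 21.8% (18.7 to 25.2). Values for Su(H), the DNA-binding partner of Notch, were 48.4% (40.4 to 56.5) and 51.1% (47.2 to 55.0), and for Notch itself 49.7% (41.6 to 57.8) and 55.8% (51.9 to 59.6). The pair-rule protein prd, by antibody RF12, was in 1 of the 157 (0.637%, 0.0161 to 3.50) and in 35 of the 656 (5.34%, 3.74 to 7.34). For 3 lists the share was the higher beside an alone region: h at 10.2% (5.94 to 16.0) against 8.23% (6.24 to 10.6), insv at 8.28% (4.48 to 13.7) against 7.47% (5.58 to 9.76), and prd with RF13 at 3.82% (1.42 to 8.13) against 2.74% (1.63 to 4.30). For every other list the share was the lower beside an alone region. The intervals do not overlap for CG8478, for either Hr78 list and for prd with RF12, and they overlap for the other 11 lists. The split rests on the same merging that defined alone and shared regions, so it is not independent of the lists a region holds. These differences were not tested, and neighbouring regions are not independent.

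**Figure D3:**
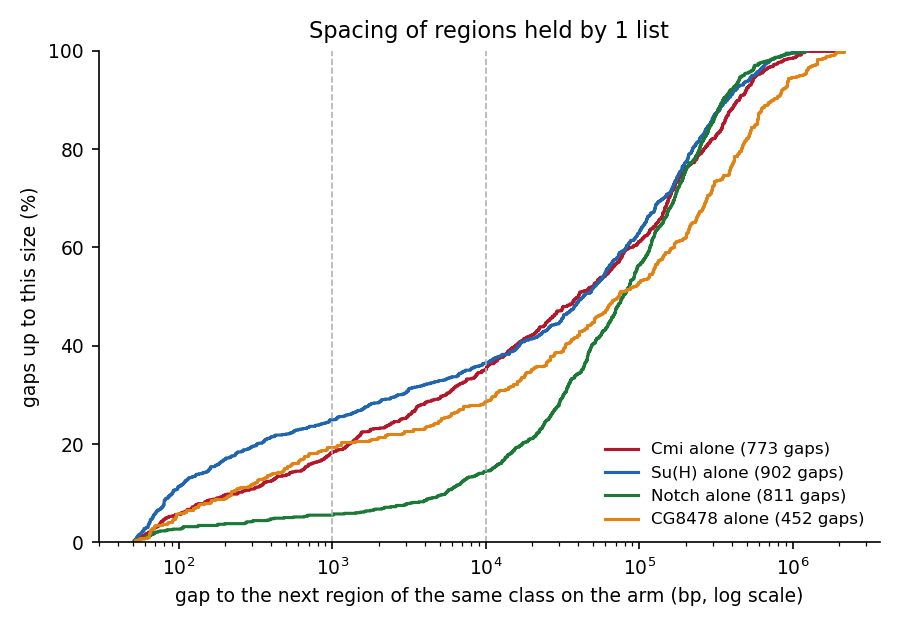
Cumulative share (y axis, percent) of the gaps between consecutive regions of 1 class on an arm (x axis, bp, log scale) for the regions held by Cmi, Su(H), Notch or CG8478 alone, with dashed lines at 1 and 10 kb. At 1 kb the Cmi line stands at 18.2%, near CG8478 at 19.5%, below Su(H) at 24.9% and above Notch at 5.55%; at 10 kb Cmi is at 35.2% and Su(H) at 36.5%.

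Without the shared regions, the spacing of consecutive Cmi-alone regions had a median of 40130 bp, and its lower quartile was 2784 bp. Of the 773 gaps 141 were under 1 kb (18.2%, 15.6 to 21.1) and 131 were of 1 to 10 kb. Su(H)-alone regions had 225 of 902 gaps under 1 kb and 104 of 1 to 10 kb, CG8478-alone regions 88 and 42 of 452, and Notch-alone regions 45 and 73 of 811.

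Chains of Cmi-alone regions less than 10 kb apart held 432 of the 779, in 160 chains of 2 or more. There were 100 chains of 2, 32 of 3, 17 of 4, 7 of 5, 1 of 6, 2 of 8 and 1 of 11, and 347 regions stood singly at this distance. The chain of 11 lay on 3L at 18198479 to 18237156 and spanned 38678 bp, of which the alone regions covered 3964 bp. Its scores ran from 6.65 to 12.0 with a median of 8.14, and its widths from 173 to 578 bp. In this span 1 other-list peak was called, of h, and it lay in the 1 shared Cmi region there.

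The other chains differed in strength and in their company. The chain of 8 on 2R at 9447343 to 9467622 had low scores, 6.47 to 8.71, and held 2 shared Cmi regions and 3 peaks of embryonic Hr78 or Notch in 20280 bp. The chain of 8 on 3L at 10836019 to 10854238 had scores from 6.85 to 20.8 and held the third-ranked region described above. In its 18220 bp lay 4 shared Cmi regions and 13 peaks of other lists, from AbdB, CG8478, embryonic Hr78, Notch, Su(H) and insv. Alone regions covered 10.2%, 20.0% and 30.2% of the 3 spans.

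**Figure D4:**
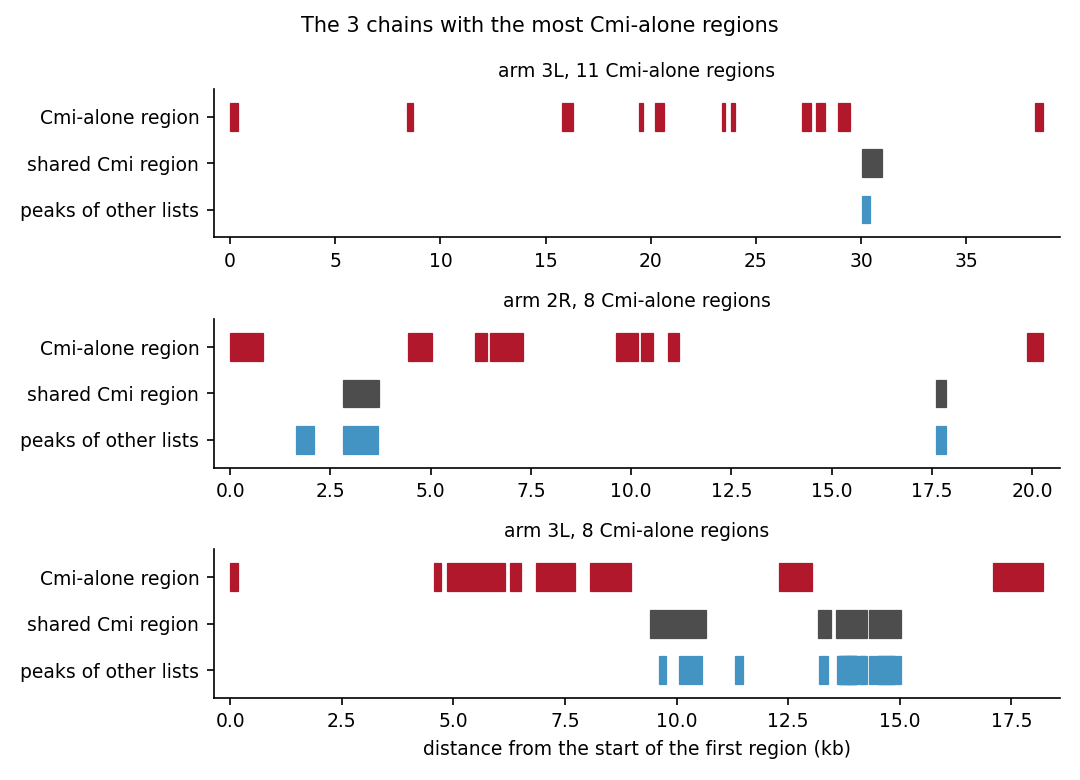
Positions of Cmi-alone regions, shared Cmi regions and peaks of other lists (rows) in the 3 chains with the most Cmi-alone regions, drawn to scale by distance from the start of the first region (x axis, kb; the scale differs between panels). The upper chain has 11 alone regions around 1 shared region, and the lower chain has 8 alone regions and 4 shared ones, with 1 alone region lying between shared ones.

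Most Cmi-alone regions had another regulator not far away. The gap to the nearest peak of another list was under 1 kb for 210 of 779 (27.0%, 23.9 to 30.2), under 5 kb for 491 (63.0%, 59.5 to 66.4) and under 10 kb for 603 (77.4%, 74.3 to 80.3), with a median of 2990 bp. The median was 2925.5 bp for Su(H)-alone, 3343 bp for CG8478-alone and 5741 bp for Notch-alone regions, each against a different set of other lists. From a shared Cmi region to the next peak of another list outside it, the median was 3445 bp. The median score did not rise or fall steadily with this distance. It was 7.61 under 1 kb, 8.00 from 1 to 5 kb, 8.14 from 5 to 10 kb and 7.66 at 10 kb or more.

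At the edge of the rule the 2 classes were hard to separate. The 5 alone regions nearest to another list had gaps of 0 bp (prd with RF13, named above), 1 bp (Notch, on 2R at 13692444 to 13692759), 4 bp (h, on 2R at 6158546 to 6158737), 6 bp (Lola, on 3L at 19628225 to 19628417) and 7 bp (insv, on X at 19607485 to 19607805). The 4 after the first had scores of 6.52, 8.56, 7.03 and 7.81. The 5 shared regions with the least overlap shared 13 bp (CG8478), 24 bp (Stat92E), 25 bp (CG8478), 33 bp (h) and 34 bp (Notch), and their Cmi peaks had scores from 6.92 to 7.59. In all, 14 alone regions lay within 50 bp of another list and 10 shared regions had a largest overlap of 50 bp or less.

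At the other extreme, 101 alone regions (13.0%, 10.7 to 15.5) had neither another Cmi peak nor a peak of any other list within 10 kb. Their median score was 7.71 and their median width 305 bp, against 7.81 and 335 bp for the other alone regions. The one with the highest score, 20.0, is the 1752 bp region on 3R described above. The region farthest from any other list, on 3R at 4293552 to 4293867, had 93809 bp to the nearest br peak and a score of 6.60. The next were on X at 18841119 to 18841441 (81307 bp, score 9.04), on 3R at 1753703 to 1753818 (79338 bp, score 7.81), on X at 18832364 to 18832468 (73046 bp, score 7.22) and on 3L at 15341138 to 15341230 (72021 bp, score 8.02). The pair on X lay 8650 bp apart.

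The nearest other list was in most cases a long one. Notch was nearest to 224 alone regions, Su(H) to 200 and CG8478 to 94. List length did not set the order throughout: h, with 209 peaks on the arms, was nearest to 32 alone regions, while AbdB with 722 peaks was nearest to 6. Within 5 kb these 2 lists stood the other way round. AbdB peaks lay that near to 89 alone regions (11.4%, 9.28 to 13.9) and h peaks to 42 (5.39%, 3.91 to 7.22). Notch peaks lay within 5 kb of 286 alone regions (36.7%, 33.3 to 40.2), Su(H) peaks of 244 (31.3%, 28.1 to 34.7), CG8478 peaks of 182 (23.4%, 20.4 to 26.5) and larval Hr78 peaks of 141 (18.1%, 15.5 to 21.0). The ecdysone-responsive zinc finger protein br, mapped at the same stage as Cmi, had a peak within 5 kb of 29 (3.72%, 2.51 to 5.30).

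Counted from the other side, h, a pair-rule repressor mapped in Kc167 cells, had the highest shares among the other lists. Of its 209 peaks 80 lay in a region with Cmi (38.3%, 31.7 to 45.2) and 17 lay less than 1 kb from a Cmi-alone region (8.13%, 4.81 to 12.7), 15 of which were themselves in a shared Cmi region. For prd with RF13 9 of 130 peaks were that near (6.92%, 3.21 to 12.7), for Su(H) 87 of 2016 (4.32%, 3.47 to 5.30), for Notch 102 of 2448 (4.17%, 3.41 to 5.04) and for br 9 of 368 (2.45%, 1.12 to 4.59). In this share near alone regions the h interval overlaps those of prd with RF13, Su(H) and Notch. Among shares of peaks in a region with Cmi, the next were insv at 31.3% (25.2 to 38.0) and dm at 31.1% (19.9 to 44.3). Both intervals overlap that of h. The lists differ in lowest score, from 2.62 for Su(H) and 2.90 for h, past 6.47 for Cmi itself, to 7.67 for dm, and the part of that in these shares was not tested.

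**Figure D5:**
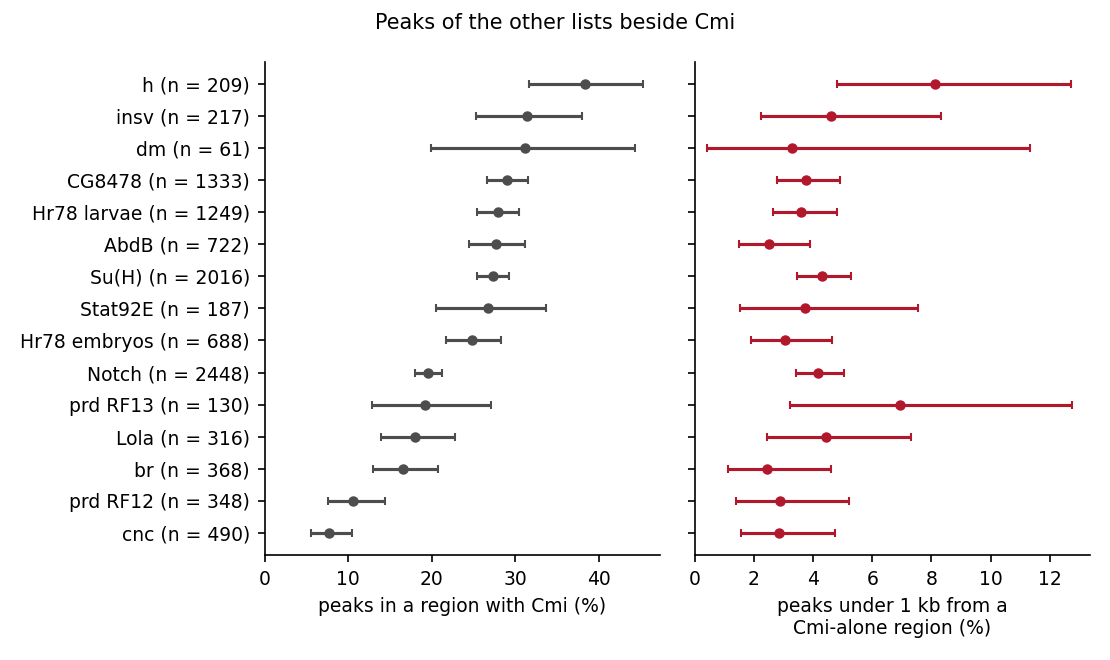
For each of the 15 other lists (rows, with the number of peaks on the arms), the share of its peaks in a region that also holds Cmi (left, percent) and the share less than 1 kb from a Cmi-alone region (right, percent). Points are shares and bars are 95% Clopper-Pearson intervals; h is highest in both, at 38.3% and 8.13%, with wide intervals for the short lists.

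The set of alone regions rests on the lists compared, and few of them decide many regions singly. Without Su(H) 901 regions would be Cmi-alone, without Notch 858, without CG8478 816 and without h 806. Leaving out any of the other 11 lists gave 780 to 795. Among the shared regions 104 held Cmi with Su(H) only, 62 with Notch only, 29 with CG8478 only, 25 with h only, 15 with cnc only and 14 with Stat92E only. Against the 5 other embryo lists alone, 265 of the 1592 Cmi regions held a second list.

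By arm, Cmi-alone regions numbered 118 on 2L, 170 on 2R, 167 on 3L, 189 on 3R, 2 on 4 and 133 on X. The X held 17.1% of them (14.5 to 19.9), against 21.6% of shared Cmi regions (18.9 to 24.6) and 20.9% of all merged regions (19.9 to 21.9). The interval for alone regions overlaps that for shared ones and ends just below that for all regions, of which the alone regions are a part. Of the Cmi regions on X 43.0% were alone, against 49.8% to 52.4% on 2L, 2R, 3L and 3R. Density was highest on 2R, at 8.07 alone regions per Mb of the span between the outermost peaks, and 5.14 to 6.83 on 2L, X, 3R and 3L. Shared Cmi regions were likewise densest on 2R, at 8.07 per Mb, followed by X at 7.92.

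On arm 4, 2 of the 10 Cmi regions were alone, at 646616 to 646798 (score 8.78) and at 1284951 to 1285030 (score 7.84), where a share of 20.0% rests on too few regions to be set against the other arms. In windows of 1 Mb the median was 6 alone regions, and 7 of 123 windows had none. The most, 20 each, were found on 2R at 6000001 to 7000000 and at 9000001 to 10000000 and on 3L at 10000001 to 11000000. These windows held 35, 33 and 27 Cmi regions in all, alone and shared. The median summit lay at 51.3% of the peak width in alone and at 50.8% in shared Cmi peaks.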

How the data were processed

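Per peak, the deposited files hold the position, a fold enrichment computed by the authors as a linear ratio, a −log10 p, also from the authors, and, as another deposited value, the summit offset in bp. MACS2, BWA and CASAVA 1.7.0 are named, with build dm3 and without settings, per the submitters' processing notes. The labels name 1 list per group of replicates, and whether reads were pooled is not given in the sources used here. Read depth per sample is unknown. Of 12745 peaks, 12462 on the 6 arms were used, 1680 of them of Cmi, and positions were written 1-based. Peak names carry ranks: 6 ranks of the Cmi list and 10 of 3 other lists have no line and were not analysed here.

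Peaks were merged at 1 bp overlap, which was checked on simulated lists and against bedtools. Distances are bases between edges. Shares have exact 95% Clopper-Pearson intervals, and no p-value was computed, since regions are not replicates. The members and rules were chosen with earlier results of these data known. Named regions are the 10 highest in score, the 5 widest, the 5 nearest to and farthest from another list, the 5 shared with least overlap, the 3 chains with most members and those on arm 4. The 1 kb runs were chosen after the data were seen. GC content and motifs had been planned and were not run, as no dm3 genome was used here; a gene table of a later assembly served to check the name of Cmi. Alternatives were other overlaps, widths, scores and sets of lists. Python 3.11.15, numpy 2.4.6, pandas 2.3.3, scipy 1.17.1 and matplotlib 3.10.9 were used.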

Additional observations from a re-analysis of the deposited data

Results flagged for a closer look

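Cmi was also called off the 6 arms, in sequence that the merging left out. There were 5 such peaks of 1685, 3 on U and 2 on Uextra, with scores from 6.62 to 9.42, and 4 of them overlapped no peak of another list.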

How the results depend on the processing

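The number of Cmi-alone regions was 779 (48.9% of Cmi regions). It moved most when only embryo lists were merged, to 1416 (84.6% of 1674 Cmi regions). Without the 6 anti-GFP lists it was 962 (59.6%). Joining peaks up to 500 bp apart gave 507 (39.5% of 1283), and the top-scoring 50% of each list gave 429 (52.5% of 817), fewer by construction. Of the others, an overlap of 50% gave 811, peaks of 400 bp gave 768, summits within 250 bp gave 885 of 1680 peaks, and leaving out each list in turn 780 to 901. A minimum score of 8 in all lists gave 583 (66.3% of 879). That cut left 893 of 1680 Cmi peaks and 1827 of 2448 Notch peaks, but 9 of 2016 Su(H) peaks. Of h it left 3 of 209, of Stat92E 4 of 187, of insv 4 of 217 and of Lola 16 of 316. The median score of alone peaks was below that of shared ones by −0.97; taking the best peak per region gave −1.22, and classes of width from narrow to wide gave −0.16, −0.35 and −0.69. For fold the difference of −0.20 became −0.26, and by width class −0.056, −0.046 and −0.14. The width difference was −156 bp, and −172 bp with the best peak per region. The share of alone regions on X, 17.1%, was 17.2% among the top 50% and by covered bases. The share with another list within 5 kb, 63.0%, was 27.0% at 1 kb, 77.4% at 10 kb and 60.3% between summits. The share with another Cmi peak within 1 kb, 45.3%, was 62.6% at 5 kb, 71.2% at 10 kb and 30.3% in the top 50%, where fewer peaks remain; these alternatives were chosen after seeing the data. Fewer lists, wider joins or fewer peaks change these counts by construction; the cause of the smaller score and fold differences within width classes was not tested. No direction was reversed under these alternatives. No paired analysis was possible because 1 list is named per group of replicates, without values per replicate, and no test was made. For the same reason no replicate could be left out. Depth is unknown, so peaks of other lists below their thresholds cannot be seen.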
